A study of Arabidopsis thaliana with 10 samples.

Results

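The jasmonate inactivation enzymes are the proteins that remove jasmonoyl-isoleucine, the active form of the wound and defence hormone jasmonate, or its precursor jasmonic acid. The set holds 10 genes of 27826 measured. They were picked by locus code from knowledge of the pathway, and they were also chosen on earlier results of these arrays, in which JOX4 and JOX2 were lower in the mutant. For this reason the members' differences between genotypes are given as a description. Their intervals and the calls of the fit over all genes reuse the values known when the members were chosen and are no independent test. The set falls into 4 branches. The oxidase branch holds JOX1 (AT3G11180), JOX2 (AT5G05600), JOX3 (AT3G55970) and JOX4 (AT2G38240). The hydroxylase branch holds CYP94B1 (AT5G63450), CYP94B3 (AT3G48520) and CYP94C1 (AT2G27690), the sulfotransferase branch ST2A (AT5G07010), and the hydrolase branch IAR3 (AT1G51760) and ILL6 (AT1G44350).

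Transcripts were measured in whole roots of Arabidopsis thaliana seedlings aged 20 days, on 5 Affymetrix arrays of the Col-0 wild type and 5 of mcu123, labelled as a triple knockout of MCU genes, which encode pore proteins of the mitochondrial calcium uniporter. Both genotypes grew in sterile hydroponics with sucrose in the medium and no named treatment, with days of 16 h at 21 °C and dark nights of 8 h at 17 °C. Each array carried RNA from pooled roots of several seedlings. The labels name a single mutant line without its alleles. Nothing in the labels says that the pools came from separate growth batches, so every spread below is that between these pools.

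Jasmonate is made from fatty acids of the plastid membrane through lipoxygenases, an oxide synthase and a cyclase, and is finished in the peroxisome. JAR1 joins it to isoleucine, and the conjugate glues the receptor COI1 to JAZ repressors, which are then destroyed and release MYC2 and its relatives. Plants end the signal by several routes. CYP94 enzymes oxidise the tail of the conjugate, the hydrolases split off the amino acid, JOX enzymes hydroxylate free jasmonic acid before it can be conjugated, and ST2A adds sulfate to hydroxylated jasmonate. Many of these genes are themselves induced by jasmonate, which makes them a negative feedback on the hormone.

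The values are log2 intensities that the authors produced with RMA, a method that corrects background, gives all arrays 1 distribution and summarises the probes of a gene. A difference of 1 on this scale is a factor of 2 in intensity. Every array had a median of 4.30, and values ran from 0.60 to 13.35. Probes differ in brightness, so a level of one gene is not set against that of another. Array pairs correlated at 0.966 to 0.991 over all genes. The targeted genes MCU3 and MCU1 were lower in every mcu123 array than in every wild-type array (log2 differences -1.98 and -1.66), and MCU2 differed by -0.09 at a low level. The array mcu123 replicate 3 had the lowest array weight, a measure of how closely an array follows its group (0.394, the others 0.644 to 1.77). Some values below are also given without it. The mean of 10 root cell markers lay at 5.73 to 5.92 in the wild type and 5.71 to 5.85 in mcu123, and none of the 10 passed in limma. The 1 at an unadjusted p under 0.05 was WOX5, a marker of the small stem cell niche, with wild-type arrays at 2.28 to 3.18 and mcu123 arrays at 2.06 to 2.69 (log2 difference -0.45, limma adjusted p = 0.60), and its part in the members' differences was not tested. The mean of 8 markers of green shoot tissue lay at 2.33 to 2.90 and 2.36 to 2.92, with none of the 8 at an unadjusted p under 0.05.

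Across the set, 9 of 10 members had a lower mean in mcu123, and JOX1 was the exception. Over all genes 47.3% had a lower mean. The median log2 difference of the members was -0.57, beside 0.01 over all genes. In 3 members, JOX2, JOX4 and ILL6, every mcu123 array lay below every wild-type array, and 1.02% of all genes had groups separated in that direction. In the limma fit over all genes with Benjamini-Hochberg adjustment at 0.05, 1 member was called, JOX4. Of all genes 0.0431% were called in either direction and 0.0395% as lower. The members were chosen with this contrast known, so nothing is read from these counts. Leaving out mcu123 replicate 3, an alternative chosen after seeing the data, gave 9 lower means again and 4 separated members, with CYP94B1 the added one, where 2.49% of all genes were separated in that direction. In bulk roots, fewer cells of a type and less RNA per cell cannot be told apart.

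**Figure D1:**
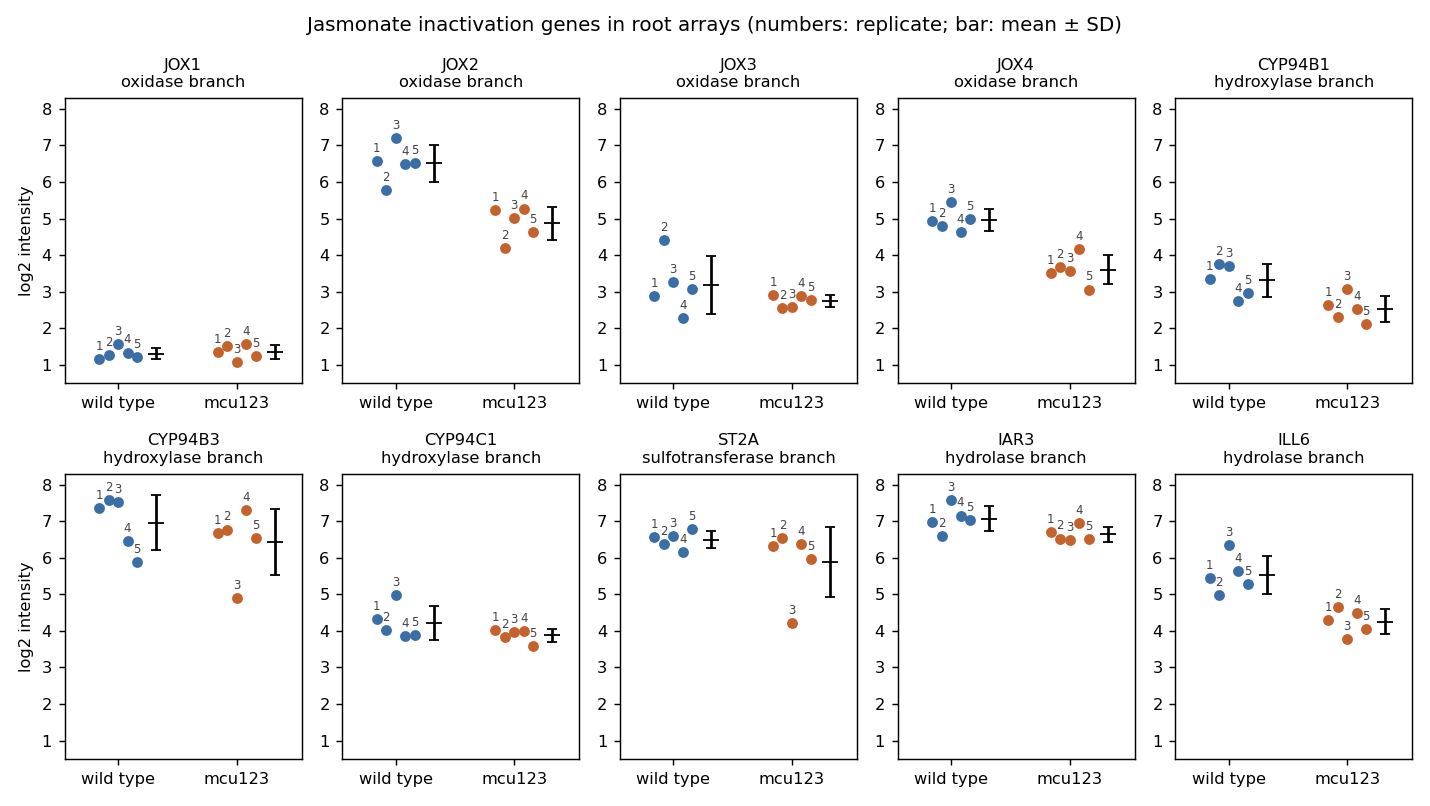
Log2 intensity (vertical axis) of each jasmonate inactivation gene in 5 wild-type and 5 mcu123 arrays. Points are arrays numbered by replicate, and the bar beside each group is its mean ± SD. JOX2, JOX4 and ILL6 show no overlap between genotypes, JOX1 is dim in every array, and mcu123 replicate 3 lies far below the other mcu123 arrays for ST2A and CYP94B3.

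The oxidase branch held the largest differences and also the gene with none to speak of. JOX enzymes are oxoglutarate-dependent dioxygenases that act on free jasmonic acid. JOX2 measured 6.58, 5.78, 7.20, 6.49 and 6.51 in wild-type replicates 1 to 5 and 5.23, 4.20, 5.0, 5.28 and 4.64 in mcu123 replicates 1 to 5. The lowest wild-type array, replicate 2, lay above the highest mcu123 array, replicate 4. The mean was 6.51 ± 0.50 in the wild type and 4.87 ± 0.45 in mcu123 (SD, n = 5 each), a log2 difference of -1.64 (SE 0.26, 95% interval -2.20 to -1.08) or an intensity 3.12-fold lower.

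JOX4 measured 4.94, 4.80, 5.44, 4.63 and 4.99 in the wild-type arrays and 3.52, 3.68, 3.57, 4.17 and 3.06 in the mcu123 arrays. The groups did not overlap, and mcu123 replicate 4 came nearest to the wild type. The log2 difference was -1.36 (SE 0.20, 95% interval -1.79 to -0.93), an intensity 2.57-fold lower. Leaving out each array in turn gave -1.82 to -1.47 for JOX2 and -1.50 to -1.23 for JOX4. Of these 10 fits, 1 called JOX4 (without mcu123 replicate 4) and 1 called JOX2 (without wild type replicate 2), and nothing is read from these calls either.

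The remaining oxidases behaved otherwise. JOX3, listed in the reference as JRG21, measured 2.88, 4.42, 3.27, 2.28 and 3.07 in the wild type, a range wider than that of any other member there, and 2.56 to 2.91 in mcu123. All 5 mcu123 arrays lay inside the wild-type range. Its log2 difference of -0.45 (95% interval -1.10 to 0.21) was -0.14 with wild type replicate 2 left out and -0.67 with wild type replicate 4 left out. JOX1 measured 1.17 to 1.56 in the wild type and 1.08 to 1.58 in mcu123, close to the lowest value on the arrays, with a log2 difference of 0.05 (95% interval -0.23 to 0.32) that was -0.0088 without mcu123 replicate 4. No detection calls were used here to separate its level from background, and a difference in its transcript was not detectable here. Similarity among JOX genes could let probes of one respond to another, and probe positions were not used here.

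The hydroxylase branch showed smaller differences, with overlapping groups in all 3 genes. CYP94B1 and CYP94B3 place a hydroxyl group on the hormone conjugate, and CYP94C1 oxidises it further to the carboxylated form. CYP94B1 measured 3.36, 3.77, 3.72, 2.75 and 2.97 in the wild type and 2.63, 2.30, 3.07, 2.54 and 2.11 in mcu123. Of the mcu123 arrays 4 lay below every wild-type array, and replicate 3, at 3.07, lay inside the wild-type range. The log2 difference was -0.78 (SE 0.23, 95% interval -1.28 to -0.29).

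CYP94B3 measured 7.36, 7.57, 7.52, 6.45 and 5.88 in the wild type and 6.68, 6.77, 4.91, 7.30 and 6.53 in mcu123. It was the most variable member within mcu123 after ST2A, with an SD of 0.90, and its wild-type arrays split into 3 higher and 2 lower values. The log2 difference of -0.52 (95% interval -1.46 to 0.42) was -0.14 with mcu123 replicate 3 left out and -0.79 with wild type replicate 5 left out. CYP94C1 measured 3.86 to 4.97 in the wild type, with replicate 3 the highest, and 3.59 to 4.03 in mcu123. Its log2 difference was -0.34 (95% interval -0.77 to 0.10), and -0.15 without wild type replicate 3.

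The sulfotransferase ST2A turned on 1 array. It measured 6.57, 6.38, 6.60, 6.17 and 6.78 in the wild type and 6.31, 6.53, 4.21, 6.37 and 5.97 in mcu123. Apart from mcu123 replicate 3 at 4.21, the mcu123 arrays averaged 6.30 ± 0.23 (SD, 4 arrays), 3 of them inside the wild-type range. The log2 difference of -0.62 (95% interval -1.41 to 0.17) was -0.20 without that array.

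The hydrolase branch held 1 larger and 1 smaller difference. Both enzymes are amidohydrolases of the family that also splits auxin from amino acids. ILL6 measured 5.44, 4.97, 6.36, 5.64 and 5.29 in the wild type and 4.30, 4.65, 3.77, 4.49 and 4.06 in mcu123. The groups did not overlap, with wild type replicate 2 lowest in its group and mcu123 replicate 2 highest in the other. The log2 difference was -1.29 (SE 0.24, 95% interval -1.81 to -0.76), an intensity 2.44-fold lower, and -1.43 to -1.08 with each array left out. IAR3 measured 6.61 to 7.57 in the wild type and 6.49 to 6.96 in mcu123, with 3 of 5 mcu123 arrays below every wild-type array. Its log2 difference was -0.43 (SE 0.17, 95% interval -0.80 to -0.07).

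Compared by branch, the median log2 difference was -0.90 for the oxidases, -0.86 for the hydrolases, -0.62 for ST2A and -0.52 for the hydroxylases. By the mean log2 difference the first 2 changed places, at -0.85 for the oxidases and -0.86 for the hydrolases. Single members within a branch also differed. The oxidases ran from -1.64 to 0.05 (the dim JOX1), the hydrolases from -1.29 to -0.43 and the hydroxylases from -0.78 to -0.34. A median narrows such spread, so these ranges are not set against the branch medians. The mean over a branch's genes was at most 3.47 in mcu123 and at least 3.68 in the wild type for the oxidases, and at most 5.72 and at least 5.79 for the hydrolases. For the hydroxylases it overlapped, at 3.98 to 4.61 in mcu123 and 4.25 to 5.40 in the wild type. Within the 2 separated branches only JOX2, JOX4 and ILL6 had separated groups, while JOX1, JOX3 and IAR3 overlapped. The mean of 13 genes of jasmonate synthesis was separated too, at 5.84 to 6.21 in mcu123 and 6.25 to 6.93 in the wild type. With each array left out the branch medians ran from -1.06 to -0.77 for the oxidases, -0.99 to -0.70 for the hydrolases and -0.79 to -0.35 for the hydroxylases. The smallest median of the hydroxylases came without mcu123 replicate 3, and their order relative to ST2A changed with the array left out. The order of oxidases and hydrolases also turned, to -0.77 and -0.99 without wild type replicate 2, -0.89 and -0.90 without mcu123 replicate 2, and -0.75 and -0.85 with array weights.

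**Figure D2:**
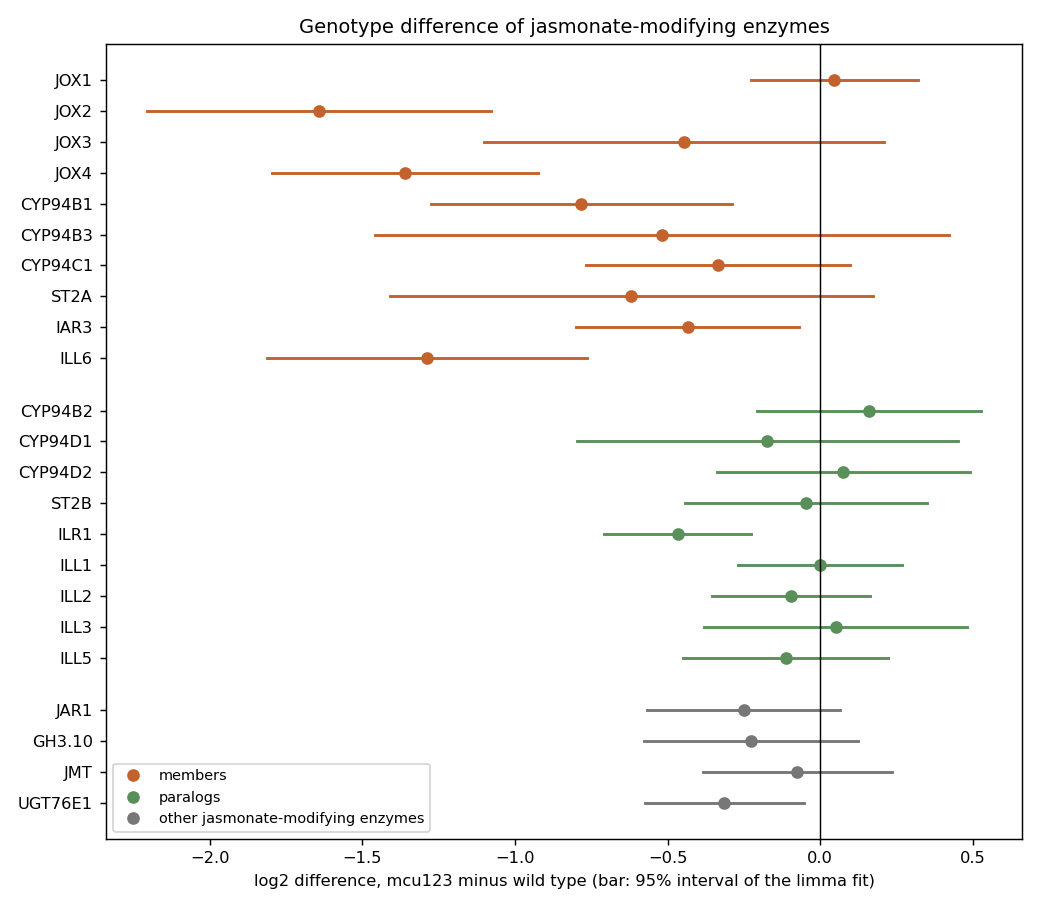
Log2 difference between mcu123 and wild type (horizontal axis) for the members, their paralogs and other jasmonate-modifying enzymes. Points are differences of means over 5 arrays each and bars are 95% intervals of the limma fit. JOX2, JOX4 and ILL6 lie below -1, and no paralog lies below -0.47.

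Array by array, the member with the lowest deviation from the wild-type mean was not always the same. In wild type replicate 3 all 10 members lay at or above the wild-type mean, with a median deviation of 0.49. In wild type replicates 2, 4 and 5, 7 of 10 members lay below that mean, by different genes: JOX2 was lowest in replicate 2 (-0.73), JOX3 in replicate 4 (-0.90) and CYP94B3 in replicate 5 (-1.07). In mcu123 replicates 3 and 5 all 10 lay below the wild-type mean, in replicate 1 it was 9, and in replicates 2 and 4 it was 8. No share over all genes was set beside these counts. The members were chosen with the genotype contrast known, so nothing is read from them. The median deviation was smallest in mcu123 replicate 4 (-0.27) and largest in mcu123 replicate 3 (-1.0). The member farthest below the wild-type mean was JOX4 in mcu123 replicates 1 and 5, JOX2 in replicates 2 and 4, and ST2A in replicate 3.

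**Figure D3:**
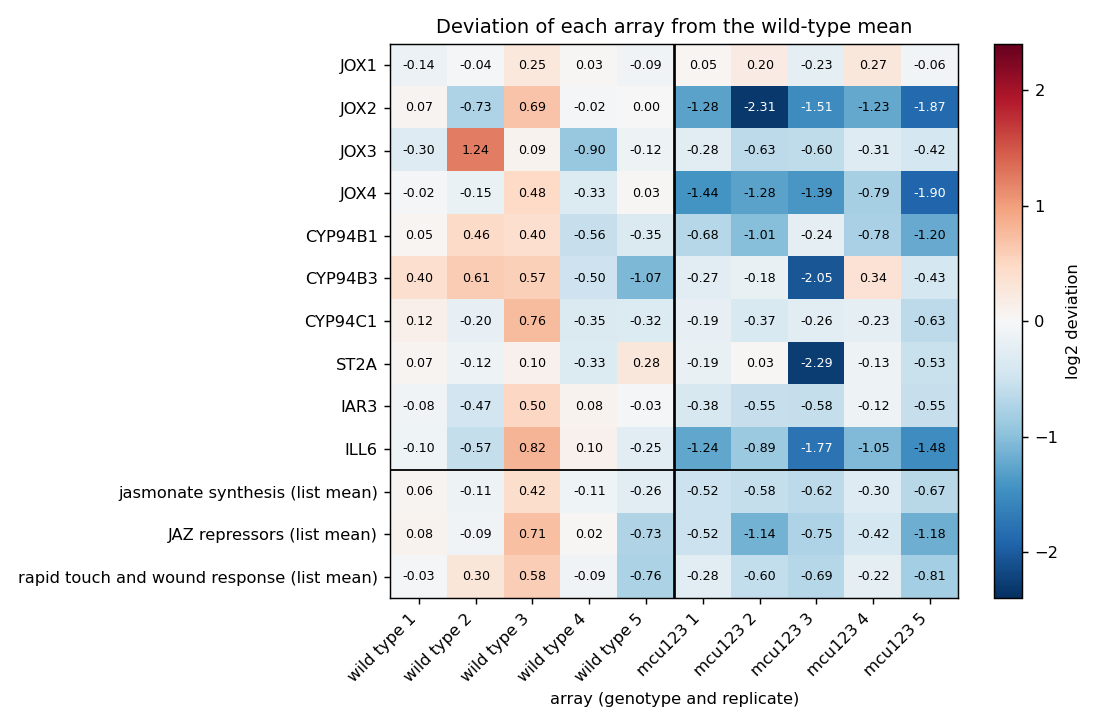
Log2 deviation of each array (columns) from the wild-type mean, for each member and for the means of 3 gene lists (rows). Wild type replicate 3 is raised in most rows, JOX2, JOX4 and ILL6 are low in all mcu123 arrays, and the -2.29 of ST2A stands in mcu123 replicate 3.

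Deviations of each array from its own genotype mean do not use the contrast that was known when the members were chosen, so co-variation among members was tested on them over the 10 arrays. Of 45 pairs of members 36 had a positive Pearson's r, with a median of 0.42 and a range of -0.43 to 0.85. No share of positive r over all pairs of genes was set beside this count, so nothing is read from it. No pair passed after Benjamini-Hochberg adjustment over the 45, by Pearson's r or by Spearman's rho (exact two-sided permutation within genotypes). At an unadjusted p under 0.05 there were 6 pairs by Pearson's r and 5 by Spearman's rho. The lowest r, -0.43 between CYP94B1 and ST2A, was 0.27 without mcu123 replicate 3. For CYP94B3 and ST2A, r was 0.69 with that array and -0.0043 without it.

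Among the pairs of smallest p were oxidases with hydrolases and both hydrolases with each other. JOX2 and IAR3 gave r = 0.84 (exact permutation p = 0.0145, adjusted 0.195) and rho = 0.71 (exact permutation p = 0.0347, adjusted 0.312), and r was 0.85 without the 2 arrays farthest from the median of JOX2. IAR3 and ILL6, both hydrolases, gave r = 0.83 (exact permutation p = 0.0173, adjusted 0.195) and rho = 0.77 (exact permutation p = 0.0184, adjusted 0.312), with r = 0.49 without the 2 arrays farthest from the median of IAR3, so the relation rests partly on wild type replicates 2 and 3. JOX4 and CYP94C1 gave r = 0.71 (exact permutation p = 0.0125, adjusted 0.195) but rho = 0.52 (exact permutation p = 0.132, adjusted 0.457), with r = 0.84 without the 2 arrays farthest from the median of JOX4. JOX1 and ILL6 had the highest r, 0.85 (exact permutation p = 0.0030, adjusted 0.134) and rho = 0.82 (exact permutation p = 0.0103, adjusted 0.312), with r = 0.61 without the 2 arrays farthest from the median of JOX1, a gene at the bottom of the scale. JOX2 and JOX4, the pair with the largest genotype differences, gave r = 0.53 (exact permutation p = 0.133, adjusted 0.351) and rho = 0.55 (exact permutation p = 0.129, adjusted 0.457), with r = 0.85 without the 2 arrays farthest from the median of JOX2. JOX3 had negative r with JOX2, IAR3 and ILL6 (-0.29, -0.38 and -0.31), and the r between JOX3 and IAR3 was 0.82 without wild type replicates 2 and 4.

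**Figure D4:**
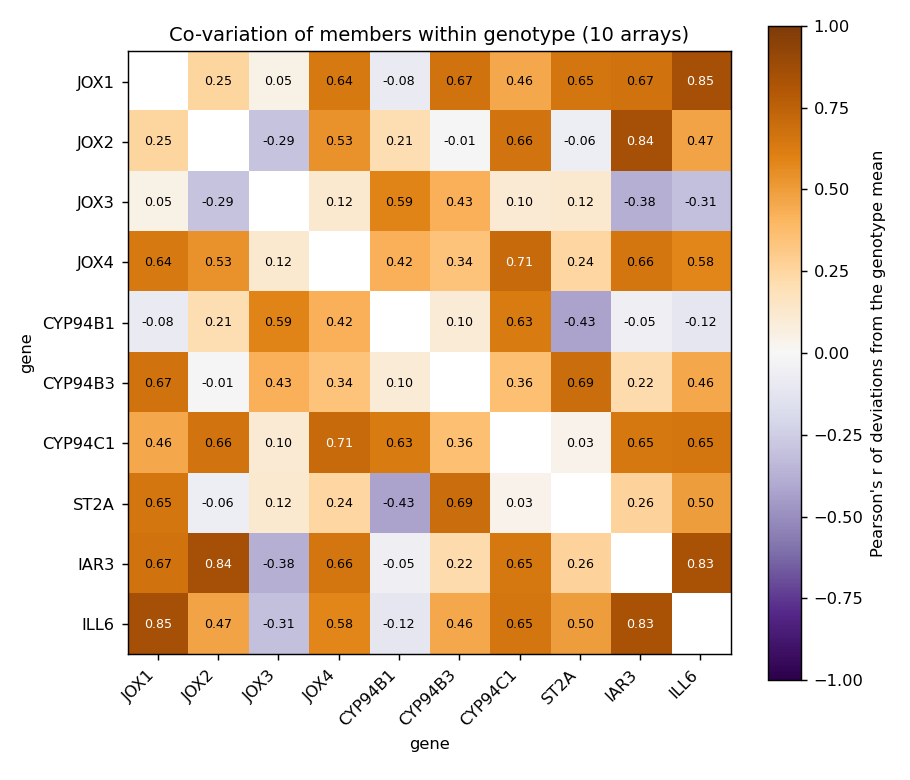
Pearson's r between members (both axes) of the deviations from the genotype mean over 10 arrays. Most cells are positive, with 0.84 for JOX2 and IAR3 and 0.83 for IAR3 and ILL6, and JOX3 is negative with JOX2, IAR3 and ILL6.

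The same deviations were set against 2 list means, that of 13 JAZ repressors and that of 12 genes of the rapid touch and wound response. Of the 20 relations 19 had a positive Pearson's r, a count without a share over all genes beside it. None passed by Pearson's r after adjustment over the 20, and 2 passed by Spearman's rho, with 3 at an unadjusted p under 0.05 by each measure. CYP94C1 followed the JAZ repressors at rho = 0.83 (exact permutation p = 0.0047, adjusted 0.047) and r = 0.82 (exact permutation p = 0.0058, adjusted 0.117), with r = 0.66 without the 2 arrays farthest from the median of the JAZ mean. CYP94B3 followed the touch and wound genes at rho = 0.85 (exact permutation p = 0.0027, adjusted 0.047) and r = 0.71 (exact permutation p = 0.0144, adjusted 0.144), with r = 0.60 without the 2 farthest arrays. ST2A gave r of -0.07 with the JAZ mean and 0.13 with the touch and wound mean. Without mcu123 replicate 3 these values were -0.06 and -0.09. The 2 arrays farthest from the median of both list means were wild type replicates 3 and 5, where the JAZ mean was 7.73 and 6.29 against 5.84 to 6.60 in mcu123. These lists therefore overlapped between the genotypes, and their part in the members' differences was not tested.

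The log2 differences of 9 paralogs from the hydroxylase, sulfotransferase and hydrolase families ran from -0.47 to 0.16. None of the 9 passed the limma test over all genes (1 at an unadjusted p under 0.05), 6 had lower means, and their median log2 difference was -0.05. ILR1, an amidohydrolase known for splitting auxin conjugates, came nearest, with means of 6.99 ± 0.15 (wild type) and 6.52 ± 0.12 (mcu123, SD, n = 5 each), groups that did not overlap, and a log2 difference of -0.47 (limma adjusted p = 0.23). The other amidohydrolases ILL1, ILL2, ILL3 and ILL5 differed by -0.00098, -0.10, 0.05 and -0.11. CYP94B2, CYP94D1 and CYP94D2 of the hydroxylase family differed by 0.16, -0.17 and 0.08. Low signal limits what can be detected for ILL5, CYP94D2 and CYP94B2, at wild-type means of 1.80, 2.38 and 2.86. The members CYP94B1 and JOX3 also had low means in mcu123, of 2.53 and 2.74. ST2B, the next gene to ST2A among those measured, lay near the bottom of the scale (1.58 ± 0.14 and 1.54 ± 0.42, n = 5) and differed by -0.05.

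Of 4 further enzymes that modify jasmonate, all had lower means and none passed in limma (1 at an unadjusted p under 0.05, UGT76E1). JAR1, which makes the active conjugate, differed by -0.25 (95% interval -0.57 to 0.06, limma adjusted p = 0.75), and GH3.10, listed in the reference as DFL2, by -0.23. The methyltransferase JMT and the glucosyltransferase UGT76E1 differed by -0.07 and -0.31 at means under 2.

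Along the pathway itself no gene passed the test in either direction, out of 13 for synthesis, 8 for perception and transcription, 13 JAZ repressors and 12 touch and wound genes. The median log2 difference was -0.66 for synthesis (11 of 13 means lower), -0.94 for the JAZ repressors (12 of 13 lower), -0.53 for touch and wound (10 of 12 lower) and -0.05 for perception and transcription (5 of 8 lower). At an unadjusted limma p under 0.05 there were 7 synthesis genes, 9 JAZ repressors, 6 touch and wound genes and 2 of perception and transcription, all lower. Over all 27826 genes a limma p of 0.0400 held rank 1741 and a limma p of 0.0537 held rank 2187. These ranks count genes of either direction, so they are no like background for counts of lower genes. Groups were separated, with mcu123 lower, in 2 synthesis genes, 1 JAZ repressor and 0 genes of the other lists, beside 1.02% of all genes. These directions were known from earlier results when the lists were written. The members' median of -0.57 lay between those of perception and touch on one side and synthesis on the other. The genes of smallest p were LOX3, a lipoxygenase (-1.33, limma adjusted p = 0.17), and AOS, the allene oxide synthase (-0.97, adjusted p = 0.22). For the repressors they were JAZ12 (-0.79, limma adjusted p = 0.16) and JAZ2 (-1.11, adjusted p = 0.28). For perception and transcription they were MYC2 (-0.87, limma adjusted p = 0.33) and JAM1, a factor that opposes MYC2 (-0.64, adjusted p = 0.62). In the touch and wound list they were ZAT12, a zinc finger factor (-1.20, limma adjusted p = 0.30), and WRKY18 (-1.01, adjusted p = 0.35).

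The members lie on chromosomes 1, 2, 3 and 5. Gene order was taken from the RefSeq table of assembly TAIR10.1, restricted to measured genes. Around JOX4, the member called in the fit, the 3 measured genes before it differed by -0.19 (PDX1L4), 0.10 (APD3) and -0.14 (PDX1.1). The gene after it, AT2G38250, had separated groups, with wild-type and mcu123 means of 6.86 ± 0.26 and 5.98 ± 0.30 (SD, n = 5 each, log2 difference -0.89), and the next genes AT2G38255 and CXIP2 differed by -0.17 and 0.11. None of these 6 was called by limma. The called annexin genes ANNAT4 and ANNAT3, singled out after their values were seen, lay on the same chromosome with 54 and 55 measured genes between each and JOX4. The targeted gene MCU3, also called, lay on this chromosome too, with 1558 measured genes between it and JOX4. A part of chromosome position in the difference of JOX4 was not tested. Around JOX2 the 6 nearest genes differed by -0.12 to 0.08 and around ILL6 by -0.31 to 0.11, with no separated groups. Around JOX3, which was not called, they differed by -0.93 to 0.09, and 1 of 6 had separated groups. A separated neighbour was therefore not particular to JOX4.

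Over the whole table, the genes most like each member in their deviations within genotype were mostly outside the jasmonate lists. Among the 50 genes most like CYP94C1 were 4 of 34 jasmonate synthesis, perception and JAZ genes (OPR3, AOS, AOC3 and JAZ13), where these 34 make up 0.122% of all genes, and 1 without mcu123 replicate 3. JOX1 had JAM1 and ST2A had ACX1 among their 50, and the other 7 members had none of the 34. JOX2 had 1 other member, IAR3, at rank 48. The closest genes by Pearson's r over 10 arrays were AT3G49142 and AT5G57510 for JOX2 (0.96 and 0.94), and AT2G14290 and AT1G70130 for JOX4 (0.98 and 0.94). They were PUM3 and AT3G57930 for ILL6 (0.96 and 0.94), AT5G02940 and AT3G11580 for IAR3 (0.95 each), and AT1G27100 and DMP7 for JOX3 (0.96 and 0.95). For the hydroxylases they were scpl33 and AT4G32580 with CYP94B1 (0.94 and 0.93), ALIS1 and AT1G02740 with CYP94B3 (0.98 and 0.97), and OFP18 and AT2G30720 with CYP94C1 (0.95 and 0.94). JOX1 was closest to AT3G04640 and AT1G05770 (0.94 and 0.92). ST2A was closest to TPS11 (0.97), a trehalose phosphate synthase homologue, and CP5 (0.97), and without mcu123 replicate 3 these values were 0.69 and 0.56. With 10 arrays, values this high occur for some gene of a large table, so they are given as a description only.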

How the data were processed

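The deposited table holds log2 intensities that the authors made with RMA, per the submitters' processing notes, with 1 row per locus code and 1 column for each of the 10 arrays. Sorted values were identical in all columns, so a shift shared by all genes cannot be read. The sources used here give no array model, probe grouping, software version or scan date, so no batch was tested. Precision is limited by there being 5 arrays a group.

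The RefSeq gene table (assembly TAIR10.1) held 27241 of the 27826 codes. All 10 members were on the array. JOX1 to JOX4 and the MCU names came from the gene lists. No sequences were used.

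The contrast was fitted with limma 3.58.1 in R 4.3.3 (lmFit and eBayes, genotype as the single term, two-sided, Benjamini-Hochberg over all 27826 genes, threshold 0.05), without a filter, and the fit was tested on simulated data. Standard errors and 95% intervals come from it. Co-variation used Pearson's r and Spearman's rho of deviations from genotype means, with all 14400 permutations within genotypes. The members and lists were chosen with earlier results of these data known. The text names all members, paralogs and other jasmonate-modifying enzymes, the 2 genes of smallest p in each pathway list, the 2 genes most like each member, and the neighbours of a called member up to 3 genes away. Alternatives were leaving out each array, array weights, a replicate block, a trended robust prior, a filter on the dimmest 30% of genes, centring on 11 reference genes and cyclic loess.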

Additional observations from a re-analysis of the deposited data

Results flagged for a closer look

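ST2A in mcu123 replicate 3 lay far below the other mcu123 arrays, at 4.21 against 6.30 ± 0.23 (SD, 4 arrays), and its gap to the nearest array was 0.760 of the group's range, above the limit of 0.71 for groups of 5. Of 20 groups examined this was 1, where chance gives about 1. The log2 difference of ST2A was -0.62 with this array and -0.20 without it.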

How the results depend on the processing

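All members except JOX1 kept their direction in 16 refits, and JOX1 took the other sign without mcu123 replicate 4 (leave-one-out range -0.0088 to 0.11). The count of called members was 1, and it was 3 with array weights (JOX2, JOX4 and ILL6), 2 with a trended and robust prior (JOX2 and JOX4), 0 with centring on reference genes or without the dimmest 30% of genes, and 0 to 1 with each array left out. JOX4 was called in 4 of 16 refits, JOX2 in 4 and ILL6 in 1, calls that reuse the values known when the members were chosen. Over all genes 12 were called, 30 with array weights, 35 with the trended prior, 7 with centring or without the dimmest genes, and 5 to 22 with each array left out. The oxidase median of -0.90 became -1.36 without the dimmest genes, which drops JOX1. Neither cyclic loess nor centring changed a member's sign. No pair of members passed under cyclic loess, centring or without mcu123 replicate 3. The replicate number as a block gave 8 called genes and 1 called member, JOX2 in place of JOX4. Same-numbered arrays correlated at -0.21 to 0.093 in their deviations and none correlated best with its own number. Replicate 1 came near, at 0.093 beside 0.097 for its best other number. These values show no pairing by number, but with so few arrays they cannot exclude it, and the labels do not say. Low signal limits JOX1, for which no difference could be detected.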
